A study of Mus musculus with 19 samples.

Results

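The genes described here encode the proteins of the cytosolic ribosome. They were taken by name and annotation alone, as the protein-coding rows of the count table whose symbols follow the Rpl and Rps naming (with Rplp0 to Rplp2, Rpsa and the a, x, l, al and l1 forms), which gave 83 of 54532 genes. Whole obstructed left kidneys of male C57BL/6J-background mice aged 8 to 9 weeks were sequenced as bulk RNA on day 12 after unilateral ureteral obstruction (UUO), a surgical model in which a tied ureter leads to tubular injury, inflammation and fibrosis. The 4 groups were WT mice given PBS (5 kidneys), WT mice given recombinant mouse CD5L (rCD5L, 5 kidneys), CD5L KO mice given PBS (4 kidneys) and CD5L KO mice given rCD5L (5 kidneys). CD5L is a circulating macrophage protein, rCD5L was injected into the peritoneum daily at 0.5 mg per mouse, and PBS was the vehicle control. All 4 groups had UUO, and kidneys without obstruction were not analysed here.

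Each cytosolic ribosome is built from a small subunit, which reads the mRNA and holds the Rps proteins, and a large subunit, which joins the amino acids and holds the Rpl proteins. A stalk of P proteins (Rplp0, Rplp1 and Rplp2) on the large subunit recruits the elongation factors. The mRNAs of these proteins are short and abundant, and most begin with a run of C and T after the cap (a 5′ TOP), through which mTORC1 and Larp1 adjust their translation together. A few genes have a paralog with a narrower range of tissues, and the mouse genome holds many processed copies of ribosomal protein mRNAs.

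Total counts lay between 17917491 and 23847090 for each kidney. Cd5l itself was at 0 counts in all 9 CD5L KO kidneys (a count of 0 allows up to 3) and at 3 to 15 counts in WT kidneys. The knockout is whole-body, and the other kidney was left in place. The kidney of replicate 4 in CD5L KO mice given rCD5L stood apart before any comparison was made. Its mitochondrial genes took 10.3% of the counts, against 2.34% to 4.55% in the other 18 kidneys, and its 8 proximal tubule markers summed to 14669 CPM (counts scaled to library size), against 1237 to 2672 CPM in the other 3 groups. Its 8 macrophage markers summed to 737 CPM, against 1879 to 3042 CPM in those groups. Replicate 3 of the same group stood apart in another way, with the largest difference between short and long genes of the 19 kidneys. The main results that involve these kidneys are given with and without them. The tubule, fibroblast and macrophage marker lists had counts in every group.

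Sequence around the RefSeq start sites (GRCm38.p6) was available for 63 of the 83 genes, and a few windows of 30 bases are shown with their longest run of C and T. Each window holds 10 bases before the annotated start and 20 bases from it, and capitals mark the longest run of C and T. Some runs begin before the annotated start and others after it, so they are not shown to follow the cap. Rps12 had the largest rise between the genotypes given PBS, without near-copies added. Rps6 is the subunit phosphorylated by S6 kinase, and Rpl35 has an 18-base run. Rpl14 is a gene with a log2 fold change near 0 in that comparison, chosen after its value was seen.
Rps12 (chr10:23787190-23787219, minus strand): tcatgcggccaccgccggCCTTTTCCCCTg
Rps6 (chr4:86857348-86857377, minus strand): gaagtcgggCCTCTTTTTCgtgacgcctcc
Rpl35 (chr2:39005112-39005141, minus strand): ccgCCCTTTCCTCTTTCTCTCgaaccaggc
Rpl14 (chr9:120571507-120571536, plus strand): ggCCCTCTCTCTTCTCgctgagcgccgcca
A run of at least 8 C or T on the strand of the gene was present in this window for 21 of the 63 genes (33.3%) and for 11.2% of the 27025 genes with a window of this kind. Within 50 bases on either side of the start, CTTTCC was found on 1 of the 2 strands in 31.7% of the ribosomal protein genes and in 8.74% of all genes. The letters CGGAAG, the core of an ETS-type motif, occurred on 1 of the 2 strands of the 300-base promoter in 42 of the 63 genes (66.7%) and in 17.2% of all promoters. TATAAA occurred in 9.52% of the ribosomal protein promoters and in 14.2% of all promoters. These are matches of letters, and a run that lies outside the window because the annotated start is displaced would not be seen.

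The levels of the genes were compared per length, as FPKM (fragments scaled to gene length and library size) from the authors' table. The stalk protein Rplp1 was highest, with a mean of 1508 FPKM over the 19 kidneys (lowest kidney 1249, highest 2171). Rplp0, the stalk base, followed at 768 FPKM, then Rps15 at 725, Rpl36 at 685 and Rpl41 at 576 FPKM. The ranges over kidneys of these last 4 genes overlapped, but the order held within kidneys. Rplp1 was above Rplp0, Rplp0 above Rps15 and Rpl36 above Rpl41 in 19 of 19 kidneys, and Rps15 was above Rpl36 in 18 of 19. The step from Rplp0 to Rps15 was small, with a median log2 ratio of 0.10 and a lowest of 0.0075. The order of levels depends on the length by which counts are divided, 499 bases for Rplp1 and 1659 bases for Rplp0. Without that division, Rplp0 (mean 1558 CPM), Rpl4 (1093), Rpsa (1032) and Rpl7 (926) were above Rplp1 (920), and Rpl36 had 321 CPM. At the other end, Rpl10l was listed at 1 count over all 19 kidneys and Rpl39l at 25 counts. Both are retrogenes known from the testis, and neither passed the filter on low counts, so 81 of the 83 genes were tested. Rpl36al stood at 0.470 FPKM, Rpl3l, a form known from striated muscle, at 0.564 FPKM and Rps10 at 1.43 FPKM. The low level of Rps10 goes with its near-copies, which held 97.9% of the summed counts, so that Rps10 had a mean of 4.05 CPM alone and 192 CPM with them.

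Low levels of a few common subunits went with overlapping annotation. In GENCODE vM21, exons of other genes on the same strand covered 47.0% of the exon bases of Rpl24, 35.4% of Rpl13a, 24.5% of Rpl36al and 20.6% of Rps10, and no other ribosomal protein gene had as much as 20%. These 4 genes were among the lowest of the 83, at 0.470 to 9.18 FPKM with a median of 2.14 FPKM, against a median of 201 FPKM for the other 79. The gene that covers part of Rps10 is annotated as RPS10-NUDT3, a readthrough of Rps10 into its neighbour. How reads that fall in 2 genes were counted is not given in the sources used here, and whether it sets these levels was not tested.

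Ribosomal protein mRNAs took a larger share of the counts in CD5L KO kidneys given PBS than in WT kidneys given PBS. The share was 4.71%, 4.43%, 4.50% and 4.07% in the 4 CD5L KO kidneys. In the 5 WT kidneys, it was 3.86%, 3.74%, 3.54%, 3.70% and 3.49%, so that the 2 groups did not overlap. The means were 4.43% ± 0.268 (SD, n = 4) and 3.66% ± 0.150 (SD, n = 5), a difference of 0.764 percentage points beside a pooled SD of 0.217. Both subunits contributed, with the Rpl genes at 2.62% against 2.19% and the Rps genes at 1.81% against 1.47% on average. In WT kidneys given rCD5L, the share was 3.26% to 3.66%. In CD5L KO kidneys given rCD5L, it was 3.93%, 3.83%, 4.30%, 2.53% and 3.85%, and the value of 2.53% belongs to replicate 4. The group mean of 3.69% ± 0.675 (SD, n = 5) therefore covers 4 kidneys above every WT kidney given rCD5L and 1 kidney below them all.

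**Figure D1:**
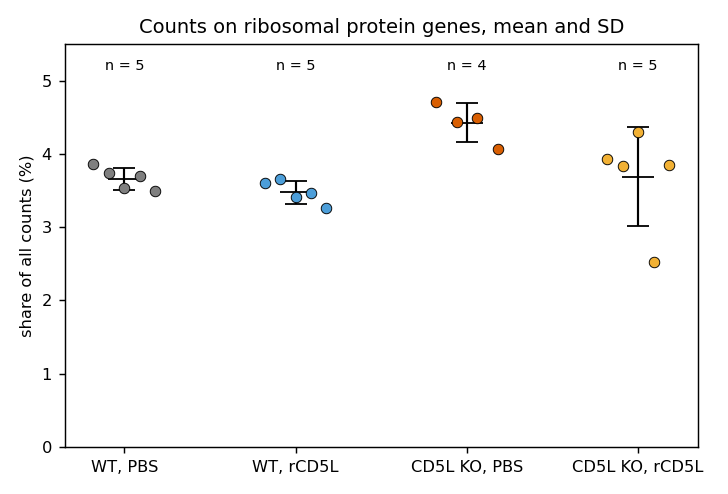
Share of all counts (%) that fell on the 83 ribosomal protein genes in each kidney (points), with the group mean and SD (bars). The 4 CD5L KO kidneys given PBS lie between 4.07% and 4.71%, above the 5 WT kidneys given PBS at 3.49% to 3.86%, and 1 CD5L KO kidney given rCD5L lies lowest at 2.53%.

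Without rCD5L, loss of CD5L went with a rise of most ribosomal protein mRNAs. Of the 81 genes tested, 60 were called higher in CD5L KO kidneys and 0 were called lower (edgeR quasi-likelihood test, Benjamini-Hochberg adjusted p under 0.05), where 5.13% of all 17579 genes were called higher, 5.4% lower and 10.5% in either direction. The fold change was above 0 for 78 of the 81 genes, with a median log2 fold change of 0.32, while the median of all genes tested was -0.0046. The 2 groups did not overlap for 61 of the 81 genes, with the CD5L KO kidneys higher, where 7.26% of all genes did so. Each of the 4 CD5L KO kidneys exceeded the highest WT kidney given PBS for 66 to 72 of the 81 genes. The rises were small and alike, and the 60 called genes spanned log2 fold changes of 0.23 to 0.49. In bulk tissue, more cells of a type with many ribosomes and more of these mRNAs per cell cannot be told apart.

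The number of calls differed between fits, and the cause of the differences was not tested. When all 19 kidneys entered 1 fit with a shared estimate of the spread, 0 of 81 genes were called (12 of 18454 genes, 0.065%), with the median at 0.33 and 60 of the 81 genes at an unadjusted p under 0.05. Leaving the rCD5L-treated CD5L KO replicate 4 out of that fit gave 36 called genes (742 genes in all, 4.03%), and leaving out replicates 3 and 4 gave 62 (2291 genes, 12.2%), both fits chosen after seeing the data. Leaving out PBS-treated CD5L KO replicate 1 from the 2-group fit lowered the count to 39 (1038 genes, 5.83%). DESeq2 called 64 (2622 genes, 14.9%), limma on log2(FPKM + 1) called 49 (1559 genes, 8.87%), and the fit with the replicate number as a block called 60 (2132 genes, 12.1%).

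The 3 largest rises among called genes were those of Rps12, Rps7 and Rpl23a. Rps12, a small subunit protein (chromosome 10 of GRCm38, 23785183 to 23787275, minus strand) stood at 334, 282, 352 and 259.9 CPM in the CD5L KO kidneys. In the WT kidneys, it stood at 221, 229.7, 212, 222 and 201 CPM. The lowest CD5L KO kidney was thus above the highest WT kidney, and the log2 fold change was 0.49 (SE 0.0852, edgeR adjusted p = 0.00671). Rps7, a small subunit protein that also binds Mdm2 (chromosome 12, 28630854 to 28635953, minus strand), had 744, 705, 784 and 678 CPM in CD5L KO kidneys. The WT kidneys had 552, 562, 532, 495 and 512 CPM of Rps7, with no overlap and a log2 fold change of 0.45 (SE 0.0614, edgeR adjusted p = 0.00470). Rpl23a, which lies at the exit of the peptide tunnel (chromosome 11, 78180932 to 78183584, minus strand), had 348, 361, 384 and 309 CPM in CD5L KO kidneys and 256, 273, 267, 251 and 241 CPM in WT kidneys. The difference amounted to a log2 fold change of 0.44 (SE 0.0665, edgeR adjusted p = 0.00526). Exons of Tlcd1 on the other strand cover 59.7% of the Rpl23a exon bases, and the strand setting of the counting is not given, so reads of the 2 genes could not be separated here.

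**Figure D2:**
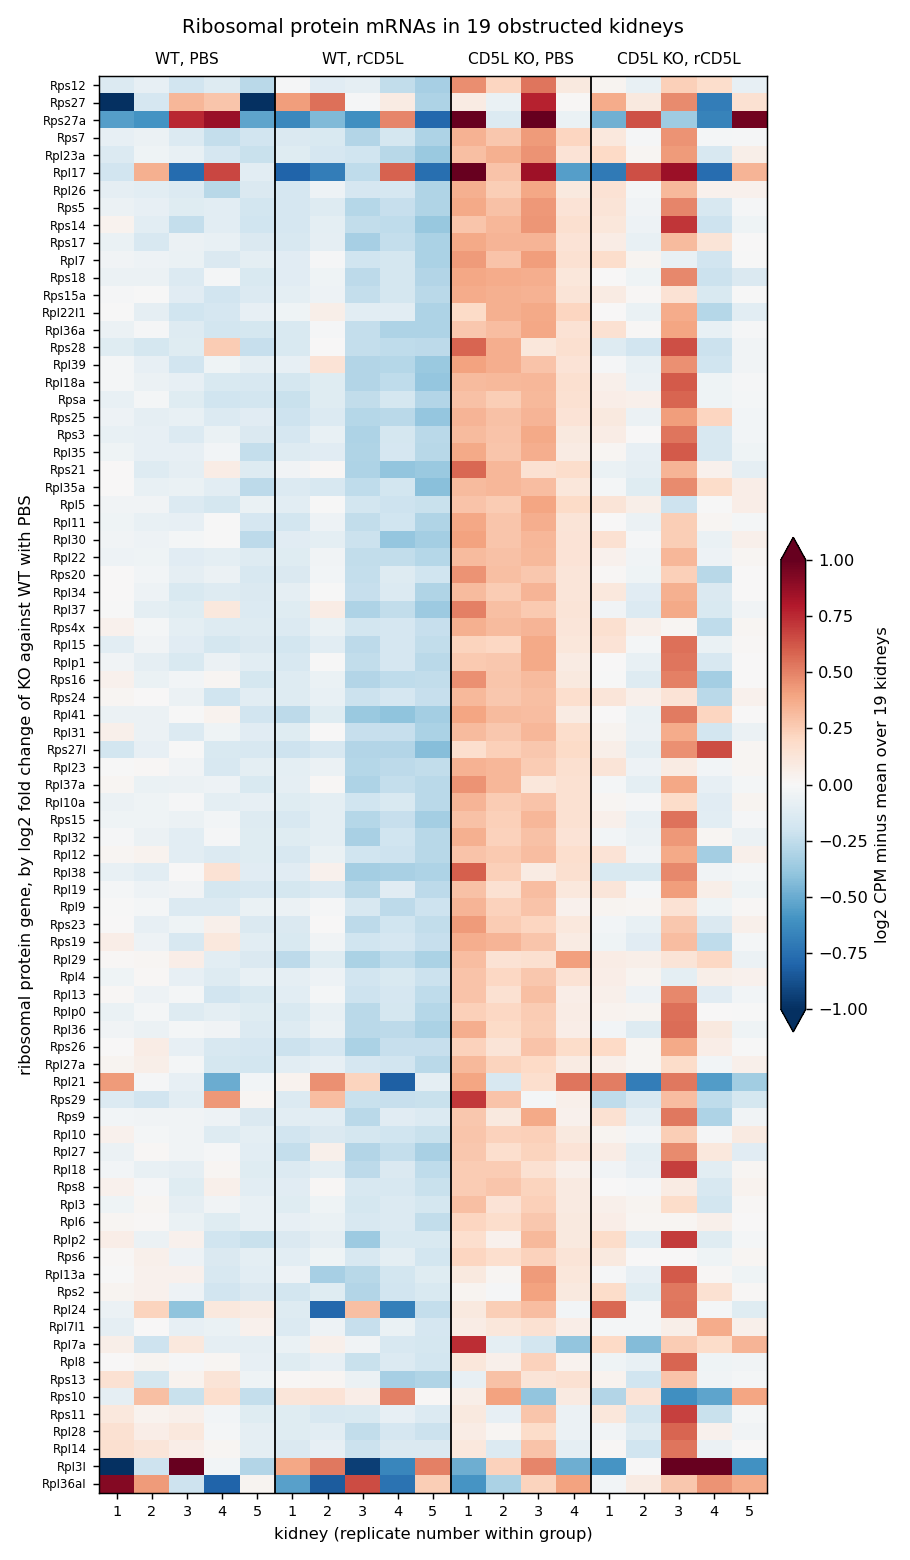
Log2 CPM of the 81 tested ribosomal protein genes (rows, ordered by log2 fold change of CD5L KO against WT with PBS) in each of the 19 kidneys (columns, by group), as the difference from the mean of the gene over all kidneys. Each CD5L KO kidney given PBS is above the highest WT kidney given PBS in 66 to 72 of the 81 rows, rCD5L-treated CD5L KO replicate 3 is the highest kidney in 38 rows, and Rps27, Rps27a, Rpl17 and Rpl21 vary within every group.

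Of the 30 small subunit genes, 22 were called higher, where 5.13% of all genes were, and the median log2 fold change was 0.35. Rps14 and Rps19, whose loss is known from human anemias, had log2 fold changes of 0.42 and 0.29. Rpsa, the laminin receptor protein, and Rps3, at the mRNA entry site, both had 0.37, and Rps15 had 0.31. All of these rose past the threshold. Rps6 had 783, 758, 790.3 and 737 CPM in CD5L KO kidneys and 677, 698, 650.1, 611 and 628 CPM in WT kidneys. The Rps6 rise was among the smallest called, with a log2 fold change of 0.23 (SE 0.0565, edgeR adjusted p = 0.0258), and its groups did not overlap.

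Of the 43 large subunit genes outside the stalk and the paralogs, 34 were called higher, where 5.13% of all genes were, and the median was 0.31. Rpl5 and Rpl11, which leave the ribosome with 5S rRNA to bind Mdm2, rose by 0.36 each on the log2 scale. Rpl10, which joins the large subunit late in its assembly, rose by 0.25. Rpl38, known for its part in the translation of Hox mRNAs, had 0.31 with an SE of 0.0981 and was not called (edgeR adjusted p = 0.0665). Rpl13a had 0.20 and was not called either (edgeR adjusted p = 0.163). Among the stalk proteins, Rplp0 had 1823, 1779, 1841 and 1627 CPM in CD5L KO kidneys and 1475, 1519, 1414, 1441 and 1418 CPM in WT kidneys, with no overlap and a log2 fold change of 0.28 (SE 0.0577, edgeR adjusted p = 0.0122). Rplp1 rose by 0.34, and Rplp2 had 0.23 without being called (edgeR adjusted p = 0.0853). Of the 15 genes chosen for their known roles, 11 were called higher (5.13% of all genes), and Rps27a, Rpl13a, Rpl38 and Rplp2 were not called.

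Of the 21 genes not called, some varied too much between kidneys and others sat near 0. The SE of the log2 fold change had a median of 0.0634 for the 60 called genes and 0.113 for the 21 others. Rps27 (0.48), Rps27a (0.45) and Rpl17 (0.43, named after its value was seen) had log2 fold changes as large as the called genes with SEs of 0.31, 0.37 and 0.31. Only Rpl14, Rpl3l and Rpl36al were below 0, at -0.01, -0.03 and -0.27 on the log2 scale, and Rpl14 was named after its value was seen.

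Rps27a, which is made as a fusion with ubiquitin, had 139.8, 136, 346, 373 and 142 CPM in the WT kidneys given PBS and 416, 187, 449 and 195 CPM in the CD5L KO kidneys given PBS. The kidneys fell into low and high values within each of these groups, and the groups overlapped. With rCD5L, 4 WT kidneys had 119 to 151 CPM and the fifth had 287 CPM, while the CD5L KO kidneys had 146, 318, 160.4, 129 and 401 CPM. No other ribosomal protein gene of its level differed as much within groups (coefficient of variation 49.8%). Adding its 10 annotated near-copies left this at 45.0%, and what sets it was not tested.

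For 3 other variable genes, the sum of the gene and its copies varied less than the gene itself. Near-copies are genes whose annotated transcripts hold at least 95% of the letters of the coding sequence over 150 bases or 90% of it. The coding sequence of Rps27 (252 bases) is identical to that of Rps27rt, a retrogene on chromosome 9, while Rps27l, the paralog on chromosome 9 that p53 induces, is 81.1% identical over 249 bases. Coding bases 7 to 36 are shown as a stretch that separates Rps27l from the identical pair, with capitals for the 13 letters of Rps27l that differ from Rps27, more than over the whole coding sequence.
Rps27: ctcgcaaaggatctccttcatccctctcca
Rps27rt: ctcgcaaaggatctccttcatccctctcca
Rps27l: ctGgcTaGAgatctGTtAcaCccTtcCTTG
In the WT kidneys given PBS, Rps27 had 118, 242, 341, 329 and 120.3 CPM. In the same order, Rps27rt had 338, 181, 52.3, 68.4 and 309 CPM, high where Rps27 was low. The sum of Rps27 and its near-copies was 456, 422, 394, 398 and 429.7 CPM in these kidneys and 581, 539, 529.8 and 495 CPM in the CD5L KO kidneys given PBS. The sums did not overlap, and the log2 fold change of the sum was 0.35 (edgeR adjusted p = 0.00839), in a fit that was chosen after seeing the data.

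Rpl17, a large subunit protein with 24 near-copies, had 141, 207, 94.9, 257 and 150.0 CPM in WT kidneys and 322, 197, 290.4 and 110.3 CPM in CD5L KO kidneys given PBS. With its copies, of which Rpl17-ps10 and Rpl17-ps3 had most counts, the values were 598, 588, 564, 553 and 542 CPM in WT kidneys and 683, 708, 722 and 639 CPM in CD5L KO kidneys. The coefficient of variation within groups was 43.9% for Rpl17 and 6.35% for the sum, and the sum was called with a log2 fold change of 0.27 (edgeR adjusted p = 0.013). Rpl21, with 58 near-copies that held 68.0% of the summed counts, had coefficients of 29.5% and 10.6% and a log2 fold change of the sum of 0.29 (edgeR adjusted p = 0.0147). With copies added throughout, 64 of 81 genes were called, all higher, with 10.5% of all genes called in that fit. The calls of Rps12 held, at 0.41 (edgeR adjusted p = 0.00947), although Rps12-ps3 carried about as many counts as Rps12 itself (217 CPM on average). Read sharing between a gene and its copies cannot be resolved from the deposited counts, so the split between Rps27 and Rps27rt, or Rpl17 and its copies, is uncertain for each kidney.

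**Figure D3:**
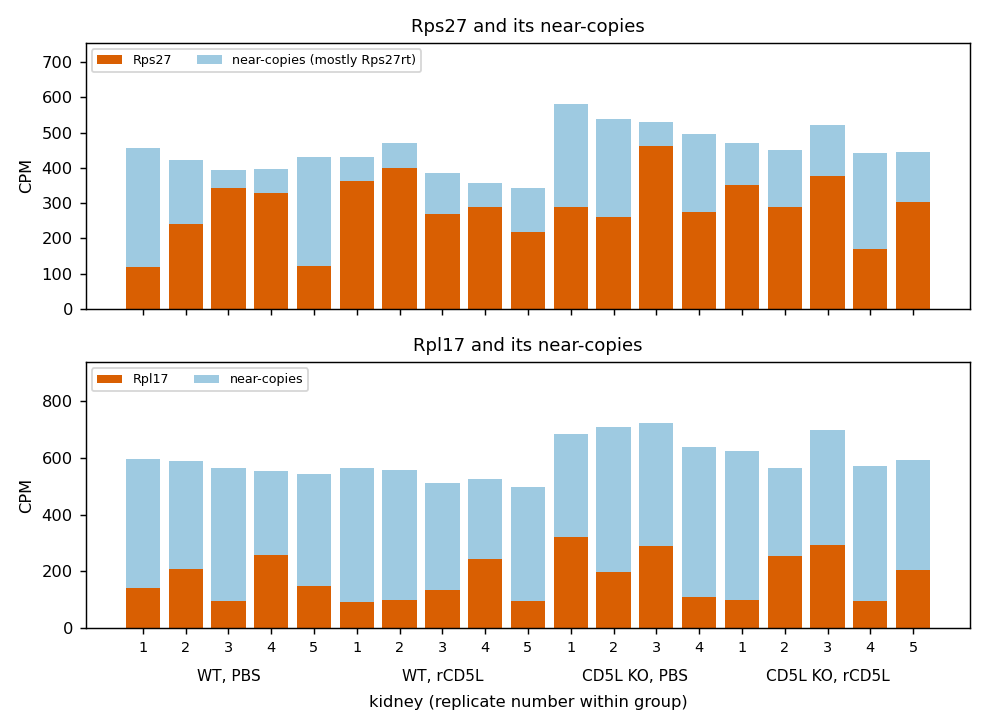
CPM of Rps27 (top) and Rpl17 (bottom) in orange, with the CPM of their annotated near-copies stacked in blue, in each of the 19 kidneys by group. The orange part of Rps27 ranges from 118 to 463 CPM while the full bar ranges from 344 to 581 CPM.

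Among the paralog pairs, 2 of the 5 tested partner forms were called higher with PBS, where 5.13% of all genes were. Per length, Rpl22 stood at 95.2 FPKM and Rpl22l1 at 21.3 FPKM, Rpl7 at 282 FPKM and Rpl7l1 at 22.5 FPKM, and Rps27 at 226 FPKM and Rps27l at 118 FPKM. With PBS, Rpl22l1 had 58.4, 65.5, 66.7 and 59.5 CPM in CD5L KO kidneys and 51.1, 48.1, 44.5, 45.7 and 48.5 CPM in WT kidneys, with no overlap. It rose by 0.39 on the log2 scale, beside 0.35 for Rpl22, whose coding sequence is 75.5% identical. Rps27l also rose, with a log2 fold change of 0.32 (SE 0.0511, edgeR adjusted p = 0.00542). Rpl7l1 had 0.13 and was not called, where Rpl7 rose by 0.40. Rpl36al had -0.27 with an SE of 0.39, where Rpl36a rose by 0.38, and adding its near-copies moved Rpl36al to 0.18. The main forms Rpl3, Rpl10, Rpl39 and Rps4x rose by 0.23, 0.25, 0.38 and 0.35.

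Gene length moved with genotype over all genes, and its values are given beside the rise. The log2 CPM of short genes less that of long genes, relative to the mean of all kidneys, was 0.12 to 0.28 in CD5L KO kidneys given PBS and -0.16 to -0.01 in WT kidneys given PBS. Among other protein-coding genes, the median log2 fold change was 0.24 for genes under 1000 bases and -0.06 for genes of 4000 bases or more. The median of the ribosomal protein genes was alike in these classes, at 0.31 under 1000 bases, where 7 of 11 were called and 19.4% of other genes were called higher, and 0.34 at 4000 bases or more, where 6 of 6 were called and 2.69% of other genes were called higher. With the length trend of the other genes taken out as an offset, 40 of the 81 genes were called, with 7.46% of all genes called in either direction, and the median was 0.24. The length in the count table equals all annotated exon bases in GENCODE vM21 for 79 of the 83 genes. A gene in a long class can therefore have a short mRNA. The classes and the offset follow exon length, and the part of mRNA length in the rise was not tested.

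**Figure D4:**
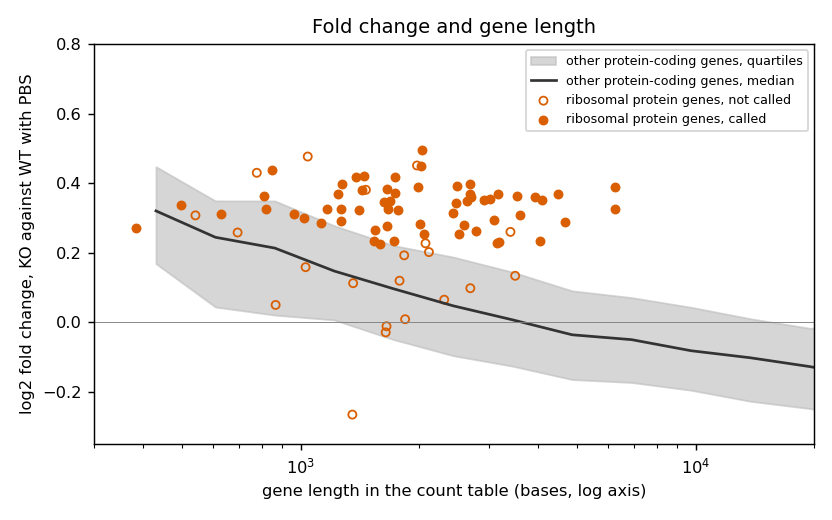
Log2 fold change of CD5L KO against WT kidneys given PBS against gene length in the count table (bases, log axis) for the 81 ribosomal protein genes (circles, filled where called), with the median (line) and quartiles (band) of other protein-coding genes. The line falls from short to long genes, and the called ribosomal protein genes lie between 0.23 and 0.49 among short and long genes.

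Some genes of 3 other families were called higher with PBS, where 5.13% of all genes were. Of 77 tested mitochondrial ribosomal protein genes, 28 were called higher with a median of 0.20, and of 18 proteasome core genes, 12 were called with a median of 0.22. Of 36 NADH dehydrogenase subunit genes, 19 were called with a median of 0.28. After the length offset, 20, 8 and 9 genes of these families were called, with medians of 0.16, 0.17 and 0.16, beside 40 called and 0.24 for the cytosolic ribosomal proteins. These differences between families were not tested.

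Genes of the machinery that makes and regulates ribosomes were called in both directions, and their counts are to be read beside the 5.13% called higher and 5.4% called lower among all genes. Of 5 ribosomal protein genes that the naming rule leaves out, Rps3a1 (0.35, edgeR adjusted p = 0.00677) and Rack1, a scaffold on the small subunit (0.32, edgeR adjusted p = 0.00773), were called higher. Of 12 elongation factors and other TOP mRNAs, 5 were called higher with a list median of 0.16, led by Tpt1 (0.43), Naca (0.29) and Eef1b2 (0.24). Of 29 initiation factors, 6 were called higher with a median of 0.08, led by the eIF3 subunits Eif3e (0.42), Eif3m (0.39) and Eif3i (0.27). Of 62 ribosome assembly and nucleolar genes, 5 were called higher and 4 lower, with a median of -0.02. Nop10, of the H/ACA particles, and the nucleolar chaperone Npm1 were among the higher ones at 0.39 and 0.36, and Utp20 among the lower ones at -0.37. Of 16 genes of RNA polymerase I and rDNA transcription, 2 were called in each direction, with Taf1c at -0.42 and Polr1a at -0.31. Of 17 genes of mTORC1 and TOP mRNA control, 0 were called higher and 2 lower, the inhibitors Tsc2 (-0.26) and Tsc1 (-0.25). Of 12 snoRNA host genes, Gas5 was called higher at 0.19 and Snhg17 lower at -0.56. The trend with gene length given above was not taken out of these calls, and its part in them was not tested.

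Cell type markers differed between the same groups. Of 7 fibroblast markers, 6 were lower in CD5L KO kidneys given PBS, and their sum was 2726 to 3683 CPM against 4059 to 6094 CPM in WT kidneys. Of 4 endothelial markers, 2 were lower, with sums of 362 to 422 CPM against 449 to 516 CPM. Of 8 macrophage markers, 1 was lower, and of the 8 proximal tubule markers, 0 were called, with sums of 1240 to 2284 CPM against 1375 to 2672 CPM. No marker of these lists was at 0 in a whole group, and the part of these cells in the ribosomal protein result was not tested.

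Between the genotypes given rCD5L, no gene passed the threshold, and the ribosomal protein genes were again mostly higher in CD5L KO kidneys. The edgeR test called 0 of 17360 genes (0%), DESeq2 called 150 genes, 3 of them ribosomal protein genes, and limma called 0. At an unadjusted p under 0.05, 3090 genes passed, and 27 of the 81 ribosomal protein genes passed in the higher direction, where 11% of all genes did, and 0 passed in the lower direction, where 6.8% did. The log2 fold change was above 0 for 77 of the 81, with a median of 0.24 beside -0.01 for all genes. Groups did not overlap for 23 of the 81, higher in CD5L KO kidneys, against 4.29% of all genes, and for 39 (4.93%) without replicate 4 and 25 (6.64%) without replicate 3. This comparison shares no kidney with the one under PBS, and of the 60 genes called there, 60 had a log2 fold change above 0 here and 21 did not overlap between groups. With all 19 kidneys in 1 fit, 18 of the 81 were called higher (1291 genes, 7%), and the shared fits of 18 and 17 kidneys called 21 (679 genes) and 18 (878 genes). With the replicate number as a block, 0 were called and 7 were at an unadjusted p under 0.05, among 1828 genes.

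Length and cell type markers moved with this comparison too. Other protein-coding genes under 1000 bases had a median of 0.30, beside 0.27 for the ribosomal protein genes of that length, and at 4000 bases or more the medians were -0.09 and 0.18. Without replicate 4, these 4 medians were 0.26, 0.30, -0.07 and 0.23, and without replicate 3 they were 0.22, 0.18, -0.07 and 0.14. With the length offset, the median over the 81 genes was 0.17 and 13 of them, among 2600 genes in all, passed an unadjusted p under 0.05. The 8 proximal tubule markers had a median log2 fold change of 1.56, with 8 above 0 and 0 called, which replicate 4 carried, since without it the median was 0.42 with 6 above 0, and without replicate 3 it was 1.77. All 7 fibroblast markers were below 0, with a median of -0.44 and 3 at an unadjusted p under 0.05. Without replicate 4, these were -0.28 and 3, and without replicate 3, they were -0.79 and 6. All 8 macrophage markers were below 0 with a median of -0.17, and without replicate 4, the median was 0.06 with 5 above 0, and without replicate 3, it was -0.27. Of 4 endothelial markers, 3 were below 0 (median -0.23). Their median was -0.21 without replicate 4 and -0.19 without replicate 3, each time with 2 lower at an unadjusted p under 0.05, as with every kidney. The 4 collecting duct markers were above 0, with medians of 0.71, 0.21 without replicate 4 and 0.54 without replicate 3. Their part in the ribosomal protein values was not tested.

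The genes with the smallest p in this comparison were Rps26, Rps27l and Rpl29. Rps26, at the mRNA exit of the small subunit, had 540.2, 478, 612, 492 and 469 CPM in CD5L KO kidneys and 405, 419, 377, 402 and 402 CPM in WT kidneys. All CD5L KO kidneys were above all WT kidneys, with a log2 fold change of 0.37 (SE 0.108, edgeR adjusted p = 0.259). Rps27l had 120.3, 108, 158, 181 and 117 CPM in CD5L KO kidneys and 100.2, 103, 94.4, 94.0 and 86.0 CPM in WT kidneys, again without overlap (log2 fold change 0.52, SE 0.155, edgeR adjusted p = 0.259). Replicate 4 gave the highest Rps27l value and replicate 3 the highest Rps26 value. The number of ribosomal protein genes at an unadjusted p under 0.05 moved with single kidneys of either genotype. Without CD5L KO replicate 4, it was 48 (2867 of 17664 genes), with 80 of the 81 genes above 0 and a median of 0.27. Without WT replicate 5 it was 8 (2035 genes), without WT replicate 3 it was 11 (1972 genes), without WT replicate 1 it was 15 (2120 genes) and without WT replicate 4 it was 16 (2058 genes). Without CD5L KO replicate 3, it was 28 and the median was 0.17. The other families stood at medians of 0.44 (mitochondrial ribosome), 0.34 (proteasome) and 0.66 (NADH dehydrogenase) with replicate 4 and at 0.27, 0.26 and 0.33 without it.

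**Figure D5:**
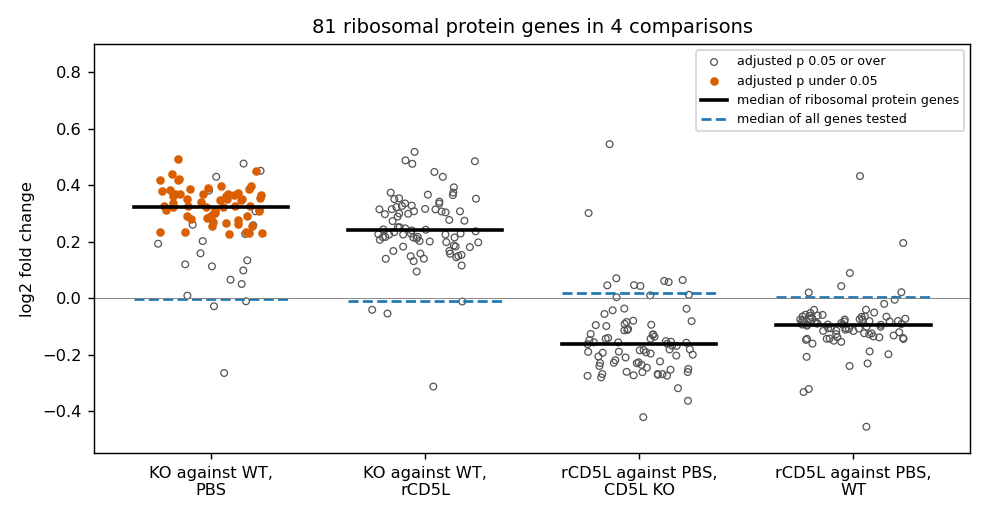
Log2 fold changes of the 81 tested ribosomal protein genes (circles, filled where the edgeR adjusted p was under 0.05) in 4 comparisons, with the median of these genes (solid line) and of all genes tested (dashed line). The medians are 0.32 and 0.24 for CD5L KO against WT with PBS and with rCD5L, and -0.16 and -0.09 for rCD5L against PBS in CD5L KO and WT mice.

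Giving rCD5L to CD5L KO mice went with lower ribosomal protein mRNA levels on average, and no gene passed the adjusted threshold. The edgeR test called 0 of 17467 genes (0%), DESeq2 called 10 genes of which 0 were ribosomal protein genes, and limma called 0. At an unadjusted p under 0.05, 502 genes passed, and 2 of the 81 ribosomal protein genes passed in the lower direction and 0 in the higher, against 1.47% and 1.4% of all genes. Groups did not overlap for 7 of the 81, lower with rCD5L, against 1.35% of all genes, and for 9 (2.93%) without replicate 4 and 48 (2.26%) without replicate 3. In fits with a shared estimate of the spread, 0 ribosomal protein genes were called, and 19 with all 19 kidneys (2240 genes), 22 with 18 kidneys (2306 genes) and 64 with 17 kidneys (2193 genes, median -0.23, 3 of 81 above 0) were at an unadjusted p under 0.05. The median log2 fold change was -0.16, beside 0.02 for all genes, and 12 of the 81 were above 0. The share of counts was 0.739 percentage points lower with rCD5L, beside a pooled SD of 0.513. The rCD5L kidneys other than replicate 3 (4.30%) had shares below the lowest PBS kidney (4.07%). Without replicate 4, whose share was 2.53%, the difference was 0.449 percentage points. Rpl7, which binds 5S rRNA on the large subunit, had 1232, 1116, 1225 and 1019 CPM with PBS and 1037, 933, 872, 803 and 916 CPM with rCD5L. Only the highest rCD5L kidney reached above the lowest PBS kidney, and the log2 fold change was -0.32 (SE 0.137, edgeR adjusted p = 0.897). Rps15a and Rpl22l1 followed with -0.27 and -0.28. Without replicate 3, the median was -0.24 and 37 genes passed an unadjusted p under 0.05 (636 of 17347 genes in all), and without replicate 4 these were -0.14 and 5 (965 of 17411 genes). With the length offset, they were -0.12 and 0 (515 genes). The medians of the other families changed sign or size with replicate 4. With replicate 4, their medians were 0.13 (mitochondrial ribosome), -0.01 (proteasome) and 0.24 (NADH dehydrogenase), and without it they were -0.04, -0.09 and -0.08. The proximal tubule markers had a median of 1.29, with 8 of 8 above 0 and 0 called, and the median was 0.14 without replicate 4 and 1.45 without replicate 3. All 4 red blood cell markers were below 0, with medians of -0.56, -0.44 without replicate 4 and -0.68 without replicate 3. The 5 proliferation markers were above 0 (median 0.20). Their median was 0.33 without replicate 4 (3 at an unadjusted p under 0.05) and 0.16 without replicate 3 (4 above 0). None of these markers was called. Their part in the ribosomal protein values was not tested.

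In WT mice, the median of the ribosomal protein genes was also below 0 with rCD5L, and the difference from CD5L KO mice is given by the interaction. The edgeR test called 0 of 17455 genes (0%), DESeq2 called 542 genes, 7 of them ribosomal protein genes and all 7 lower, and limma called 0. At an unadjusted p under 0.05, 2797 genes passed, and 17 of the 81 ribosomal protein genes passed in the lower direction and 0 in the higher, against 7.71% and 8.31% of all genes. Groups did not overlap for 3 of the 81, lower with rCD5L, against 2.11% of all genes. The median log2 fold change was -0.09, with 6 of 81 above 0. Other protein-coding genes under 1000 bases had a median of -0.11, beside -0.13 for ribosomal protein genes of that length. With the length offset, the median over the 81 genes was -0.06 and 7 of them, among 2441 genes in all, passed an unadjusted p under 0.05. The 17 genes at that level became 37 without rCD5L replicate 2 (3018 genes in all), 26 without PBS replicate 5 (2765), 11 without rCD5L replicate 3 (2506) and 10 without rCD5L replicate 5 (2213). The 8 proximal tubule markers were all below 0, with a median of -0.37 and 0 called. Of the other lists, also with 0 called, 4 endothelial markers had a median of -0.17 (3 lower at an unadjusted p under 0.05), 4 red blood cell markers had -0.64 (all below 0) and 8 T and B cell markers had 0.34 (7 above 0). Their part in the ribosomal protein values was not tested. Rpl41, the smallest ribosomal protein, had 675, 744, 628, 613 and 639 CPM with rCD5L and 780.5, 779.7, 808, 833 and 709.5 CPM with PBS. The groups overlapped by 1 kidney on each side, with a log2 fold change of -0.23 (SE 0.0607, edgeR adjusted p = 0.119). Rpl29 and Rpl28, both of the large subunit, had -0.21 and -0.20. Medians of the other families were -0.12 (mitochondrial ribosome), -0.09 (proteasome) and -0.17 (NADH dehydrogenase).

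Whether rCD5L acted differently in the 2 genotypes was tested as an interaction over all 19 kidneys. The edgeR test called 0 of 18454 genes (0%), as did DESeq2 and limma. At an unadjusted p under 0.05, 1154 genes passed (4.41% higher, 1.84% lower) and 0 ribosomal protein genes, and DESeq2 gave 1 ribosomal protein gene. The median interaction was -0.06 on the log2 scale, with 31 of 81 above 0. Without rCD5L-treated CD5L KO replicate 3, 10 ribosomal protein genes, among 1290 of 18396 genes, passed an unadjusted p under 0.05, the median was -0.14 and 14 of 81 were above 0. Without replicate 4 of that group, 1 passed and 31 were above 0. The proximal tubule markers had a median interaction of 1.63, with 8 of 8 above 0 and 0 called, of 0.44 without replicate 4 and of 1.78 without replicate 3. Rpl7 had -0.24 (SE 0.123), Rpl22l1 -0.28 (SE 0.145) and Rps12 -0.26 (SE 0.146), each with an edgeR adjusted p of 0.731. The median ranged from -0.14 to -0.03 when single kidneys were left out.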

How the data were processed

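Total RNA of 19 obstructed kidneys was sequenced in pairs of 150-base reads. Per the labels and the study's methods, the authors used Trimmomatic for trimming, HISAT2 for alignment (GRCm38) and featureCounts for gene counts. Versions, the strand setting and the handling of multi-mapping reads are not given in the sources used here. The deposited table holds raw counts, FPKM values and a length in bases per gene.

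Counts were tested with edgeR 4.0.16 (TMM, filterByExpr with a minimum count of 10, quasi-likelihood test, Benjamini-Hochberg threshold 0.05) in fits of the 2 groups compared, and the interaction in a fit of all groups, with R 4.3.3. DESeq2 1.42.0 and limma 3.58.1 on log2(FPKM + 1) or log2(FPKM + 0.1) were alternatives, with other filters, factors and left-out kidneys. CPM used TMM library sizes. Scripts were tested on simulated data. The total counts of 17917491 to 23847090 limit the precision for low genes. P-values set a difference between groups against the spread between kidneys within them. No 2 kidneys of a group agreed within sampling noise (36 pairs, smallest chi-square per degree of freedom 6.63).

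Members and lists were chosen with earlier results of these data known. Named genes were 15 genes of known role, paralog pairs, the 3 largest called rises or falls per comparison (the 3 smallest p where fewer were called) and the 5 highest and lowest by FPKM, and other names are marked as chosen after their values were seen. From lists of non-members, up to 3 called genes with the largest change were named. Near-copies came from GENCODE vM21 and start sites from RefSeq (GRCm38.p6). Same-numbered kidneys did not deviate together (correlations -0.186 to 0.174). Allocation of mice was not formally randomized.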

Additional observations from a re-analysis of the deposited data

Results flagged for a closer look

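Of 64 groups of values checked, 10 held a kidney far from the others of its group, and chance alone gives about 1 in 20 groups. In CD5L KO mice given rCD5L, replicate 4 had the lowest share of counts on ribosomal protein genes (2.53%), the highest share of mitochondrial counts (10.3%) and the highest Rps27rt level (273 CPM). Replicate 3 of that group stood above the others in the median deviation of the ribosomal protein genes from their means (0.40 on the log2 scale), in Rps7 (797 CPM), in Rplp0 (2259 CPM) and in Rplp1 (1322 CPM). In WT mice given rCD5L, replicate 4 was far above the others in Rps27a (287 CPM) and in Rpl17 (244 CPM). In CD5L KO mice given PBS, replicate 3 was far above the others in Rps27 (463 CPM). For Rps27, Rps27rt and Rpl17, the sum over near-copies varied less than the gene itself, and the cause of the other values was not tested.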

How the results depend on the processing

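For CD5L KO against WT with PBS, 60 ribosomal protein genes were called, and this count was 45 to 64 with DESeq2, other factors and filters, limma with either pseudocount, near-copies summed and the replicate number as a block (60, with a median of 0.30). It was 0 with all 19 kidneys in 1 fit (12 genes in all), 36 in the shared fit of 18 kidneys (742 genes), 31 with limma without a filter (967 genes) and 40 with the length offset (1312 genes, 7.46%, median 0.24), and 39 to 59 when single kidneys were left out (1015 to 2062 genes). With rCD5L, the 0 called genes of the genotype comparison became 3 (DESeq2), 18 (all 19 kidneys, 1291 genes), 21 (18 kidneys) and 18 (17 kidneys). For rCD5L in WT mice, they became 7 (DESeq2). The shared fits, the summed near-copies, the other CPM factors and the marker, length and overlap values without CD5L KO replicates 3 or 4 were chosen after seeing the data. The causes of these shifts were not tested. Kidneys with the same number did not pair, and the block changed no other count of 0. With rCD5L, the block gave 7 ribosomal protein genes of the genotype comparison, in place of 27, at an unadjusted p under 0.05 (1828 genes). With TMM factors over the genes past the filter in place of all genes, the ribosomal protein genes whose groups did not overlap went from 7 to 4 for rCD5L in CD5L KO mice and from 23 to 31 for the genotypes given rCD5L.

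Among named genes, Rpl3l reversed to 0.033 with the block, to 0.0022 with limma (with and without the filter) and to 0.076 with the smaller pseudocount, and Rpl36al to 0.18 with near-copies. With single kidneys left out, Rpl3l ranged from -0.26 to 0.44, Rpl36al from -0.447 to 0.026 and Rpl14 from -0.094 to 0.045. Depth limits Rpl3l, Rpl36al, Rpl10l and Rpl39l, whose counts are low.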
